A study of Mus musculus with 5 samples.

Results

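Interferon-stimulated genes are the genes that cells switch on when interferon reaches them, and 45 of them, listed by symbol, were followed here in sorted mouse hair follicle stem cells. Of these, 44 were among the 30840 features of the deposited expression table and 36 passed the filter on low counts that left 22181 genes for testing; expression of Ifit3b was not analysed here. The symbols were taken from knowledge of the interferon response, and the list was chosen with earlier results of these data known. RNA came from back skin of adult mice with induced loss of Polycomb repressive complex 1 (PRC1 i2KO, 3 libraries) and of mice without that loss (Control, 2 libraries). PRC1 i2KO mice carried K15-CrePR1, a Cre recombinase under a keratin 15 promoter that RU-486 activates, in addition to Ring1a-/- and Ring1bflox/flox, whereas Control mice carried Ring1a-/- and Ring1bflox/flox without the Cre. Both groups therefore lacked Ring1a, both received 1% RU-486 on the skin for 10 days from postnatal day 50, and both were sampled at postnatal day 70. The Cre transgene and the Ring1b deletion cannot be told apart in this design, and the labels do not say whether each library came from a separate animal, so p-values measure the spread between libraries, which may be technical. The sort took EpCAM-positive, Sca1-negative, CD34-positive cells with high α6-integrin, 50000 per library.

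Type I and type III interferons bind receptors that act through the kinases JAK1 and TYK2 and assemble a complex that includes STAT2 and IRF9 and binds the interferon-stimulated response element (ISRE) in promoters. Interferon gamma acts on the gamma-activated site (GAS), and through IRF1. The genes switched on in this way include sensors of foreign RNA, enzymes that degrade RNA or block its translation, the ubiquitin-like modifier ISG15 with its conjugation enzymes, and the machinery that loads peptides onto MHC class I. Hair follicle stem cells are known as a site of low MHC class I expression in resting follicles.

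Libraries held between 11626006 counts (Control 3) and 43307694 counts (PRC1 i2KO 2), so that 1 count stood for 0.0203 to 0.0793 CPM (CPM, counts scaled to a common library size with TMM factors). The share of mitochondrial ribosomal RNA was 29.7%, 21.4% and 32.0% in PRC1 i2KO 1, 2 and 3, against 16.7% and 22.6% in Control 2 and 3. Rnf2, which encodes Ring1b, was at 39.9, 33.1 and 36.4 CPM in PRC1 i2KO 1, 2 and 3 and at 27.7 and 37.5 CPM in Control 2 and 3; Ring1, the gene of Ring1a, which both groups lack by genotype, had 50, 70 and 116 counts in PRC1 i2KO and 92 and 63 counts in Control. Counts per gene pool deleted and retained exons, so these values do not check the labels. All 9 listed sort and bulge markers had counts in every library. By edgeR 0 of them passed, with 2 higher and 2 lower at an unadjusted p under 0.05 (7.43% and 3.51% of all genes). Not all of the 9 are given by library here. The bulge keratin Krt15 was at 4427, 5076 and 3418 CPM in PRC1 i2KO 1, 2 and 3 and 4270 and 4358 CPM in Control 2 and 3. Epcam was between 73.4 and 106 CPM, Itga6 (α6-integrin) between 285 and 345 CPM, and Cd34 at 298, 292 and 164 CPM in PRC1 i2KO and 477 and 326 CPM in Control (log2 fold change -0.68 ± 0.27, edgeR adjusted p = 0.422).

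The promoters below show matches to the core of the ISRE, in members with higher levels and in members that were almost silent. Whether a match carries the interferon signal in these cells was not tested. Sequences are RefSeq promoters of GRCm38.p6, from 250 bases before to 50 after a gene's start, read 5′ to 3′ on the gene's strand. The ISRE core was searched as GAAANNGAA on both strands, where it reads TTCNNTTTC on the opposite strand; matches are in capitals, and neighbouring matches can overlap. It was present in 21 of 42 promoters of the 35 listed genes that had an entry, Ifit3b included (50.0%), against 8.56% of all 32851 promoters in the table. The GAS core TTCNNNGAA, which is its own reverse complement, was present in 9 of the 42 (21.4%), against 8.30% of all promoters. The 4 tested members with a match and the highest mean TPM come first, and Isg15 and Ifit1, added after their values were seen, follow. The matches in Ddx58 and Eif2ak2 begin after the gene's start.
Trim25 (chr11:88999369-88999427, + strand): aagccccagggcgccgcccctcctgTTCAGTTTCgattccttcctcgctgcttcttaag
Ddx58 (chr4:40239789-40239847, - strand): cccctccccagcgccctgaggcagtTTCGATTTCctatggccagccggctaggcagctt
Stat2 (chr10:128270252-128270310, + strand): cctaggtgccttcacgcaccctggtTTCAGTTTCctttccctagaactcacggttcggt
Eif2ak2 (chr17:78882523-78882579, - strand): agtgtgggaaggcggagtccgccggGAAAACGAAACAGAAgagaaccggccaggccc
Isg15 (chr4:156200851-156200921, - strand): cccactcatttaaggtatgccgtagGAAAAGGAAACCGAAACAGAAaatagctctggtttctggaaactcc
Ifit1 (chr19:34640755-34640838, + strand): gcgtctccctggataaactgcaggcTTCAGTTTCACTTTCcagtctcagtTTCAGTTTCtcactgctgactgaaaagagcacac

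Genes with several matches spanned high and low levels. Eif2ak2 and Ifih1, with 2 matches each, averaged 12.4 and 9.48 TPM. Isg15 and Ifit1, with 3 matches each, averaged 0.480 and 0.865 TPM, while Trim25, Ddx58 and Stat2, with 1 match each, averaged 27.5, 20.1 and 14.4 TPM (a unit scaled for transcript length and so comparable between genes). The median log2 fold change was 0.37 over the 14 tested members with a match and 0.57 over the 14 with a promoter entry and no match, a description without a test. A window without a match says only that these letters are not in these bases.

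Most members were expressed weakly in both groups. Mean TPM over all 5 libraries was at least 10 for 8 members, from 1 to under 10 for 16, and under 1 for 20. Ifi27, a small hydrophobic protein of mitochondria and the nuclear envelope, was the highest, at 60.8, 107 and 114 TPM in PRC1 i2KO 1, 2 and 3 and at 143 and 69.6 TPM in Control 2 and 3. Trim25, the ubiquitin ligase that acts on RIG-I, was next, at 25.8, 29.6 and 22 TPM in PRC1 i2KO and 39.4 and 20.8 TPM in Control. In both genes the groups overlapped. Ifi27 was above Trim25 in every library, whereas Trim25 and the next genes in the order of levels, Ddx58, Psmb9 and Stat2, overlapped over the 5 libraries.

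No member passed the test between the groups. By edgeR's quasi-likelihood test with Benjamini-Hochberg adjustment over all 22181 genes, 0 of 36 members were higher and 0 lower at an adjusted p under 0.05, where the test called 0.126% of all genes higher and 0.0% lower. At an unadjusted p under 0.05, 6 members were higher, Adar, Oas1a, Psmb9, Rtp4, Psmb8 and Irf9 (7.43% of all genes were higher), and 0 lower (3.51% of all genes). Oas1a and Rtp4 had 0 counts in both controls and passed the filter only through PRC1 i2KO, so they could only come out higher. DESeq2 called 3 of 44 members higher, Adar, Oas1a and Psmb9, and 0 lower, where it called 2.43% of 30631 features higher and 0.532% lower. Neither limma-voom (0.018% of genes higher, 0.0% lower) nor limma on log2(TPM + 1) (0.00902% higher, 0.00451% lower) called a member; at an unadjusted p under 0.05 limma-voom had 3 members higher (6.93% of all genes) and 0 lower (5.51%), and limma on log2(TPM + 1) had 0 higher (2.61%) and 4 lower (8.03%). The median log2 fold change over the 36 tested members was 0.41 (26 positive, 10 negative), against 0.01 over all tested genes (11172 positive, 11009 negative). Over all 44 members without the filter it was 0.42. Leaving out PRC1 i2KO 1 gave a median of 0.12, and leaving out Control 3 gave 0.80. In TPM the sign of the median changed, to -0.015 on log2(TPM + 1) and -0.058 on log2(TPM + 0.1). The medians over all genes were lower there, at -0.19 and -0.33, so the members' median stayed above that of all genes.

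**Figure D1:**
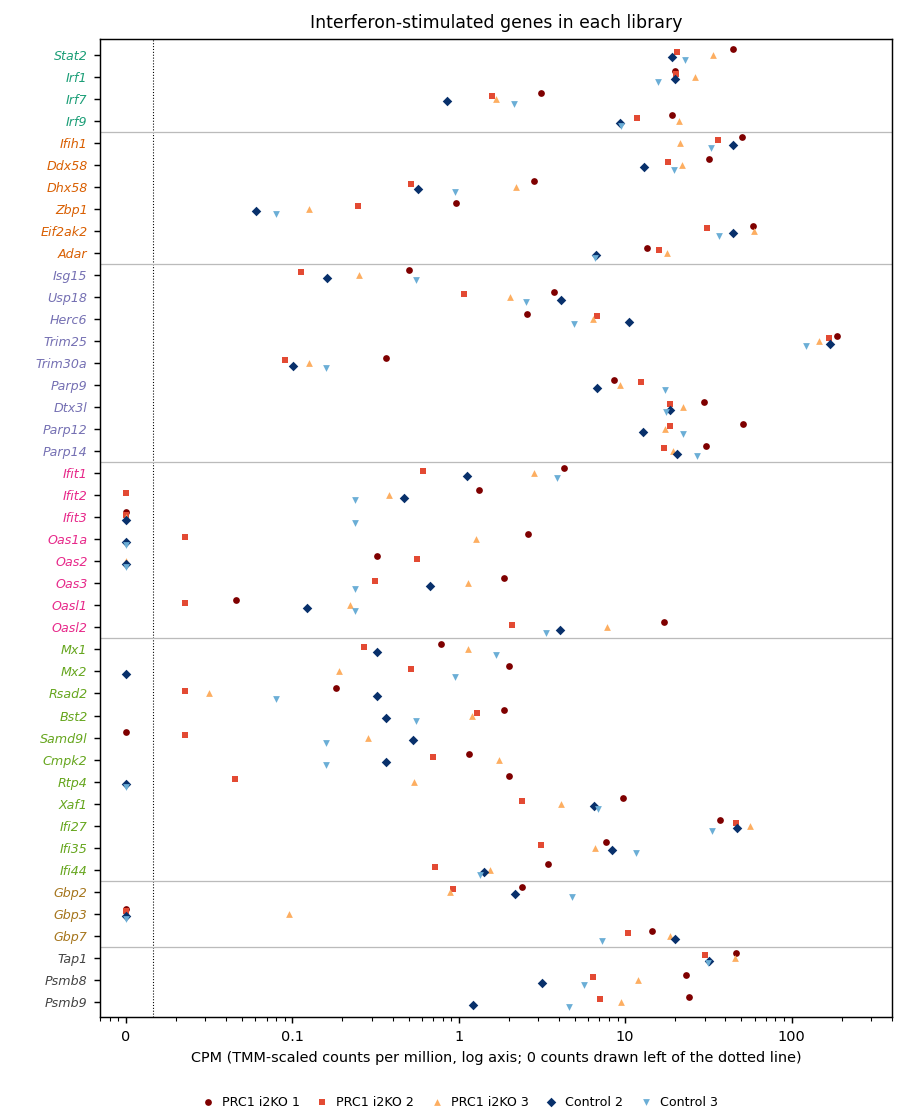
CPM of the 44 interferon-stimulated genes in each of the 5 libraries on a log axis, 1 row per gene, grouped by role between grey lines (from the top: signalling and transcription factors, sensors, ISG15 and related enzymes, IFIT and OAS families, other antiviral effectors, guanylate-binding proteins, antigen processing). Red to orange symbols are PRC1 i2KO libraries and blue symbols Control libraries; PRC1 i2KO 1 is the highest point for 22 of the 36 tested genes.

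The PRC1 i2KO libraries were not alike. The median shift of the tested members from the mean of both controls, on log2(CPM + 1), was 0.74 in PRC1 i2KO 1, -0.05 in PRC1 i2KO 2 and 0.36 in PRC1 i2KO 3, where that of all tested genes lay between -0.05 and -0.01 in these libraries. PRC1 i2KO 1 held the highest value of 22 of 36 members (61.1%), against 23.6% of all tested genes, while PRC1 i2KO 2 held the highest value of 0 members, against 18.1% of all genes. Summed over the 44 members, the level was 764, 512 and 604 CPM in PRC1 i2KO 1, 2 and 3 and 532 and 479 CPM in Control 2 and 3. PRC1 i2KO 2 thus lay between the controls in summed CPM, and PRC1 i2KO 1 stood above all other libraries. Trim25 alone gave 167 CPM in PRC1 i2KO 2 and 171 and 121 CPM in Control 2 and 3. Without Trim25, PRC1 i2KO 2 lay below both controls in summed CPM. Summed TPM was 299, 261 and 290 in PRC1 i2KO 1, 2 and 3 and 371 and 234 in Control 2 and 3. By that measure every PRC1 i2KO library lay between the controls, and Control 2 was the highest. This order rests on Ifi27, which alone gave 60.8, 107 and 114 TPM in PRC1 i2KO and 143 and 69.6 TPM in Control. Without Ifi27, PRC1 i2KO 1 was the highest in summed TPM and PRC1 i2KO 2 lay below both controls. In PRC1 i2KO 1 the Langerhans cell gene Cd207 had 60 counts, against 8 and 6 in PRC1 i2KO 2 and 3 and 0 and 1 in Control 2 and 3, and Itgax had 18 counts there and 0 in every other library. Summed over 15 immune cell markers the level was 21.4, 20.8 and 28.2 CPM in PRC1 i2KO 1, 2 and 3, against 11.9 and 18.1 CPM in Control 2 and 3, with 7, 3 and 2 markers at 0 in PRC1 i2KO and 6 and 6 in Control. The pan-leukocyte gene Ptprc was at 1.74 CPM in PRC1 i2KO 1, below both controls at 4.26 and 2.86 CPM. Endothelial markers summed to 15.6, 20.5 and 23 CPM in PRC1 i2KO against 19.9 and 12.8 CPM in Control, and melanocyte markers to 106, 127 and 82.5 CPM in PRC1 i2KO against 205 and 160 CPM in Control. The part of these markers in the members' levels was not tested. In bulk RNA, more cells with a transcript and more RNA per cell cannot be told apart.

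**Figure D2:**
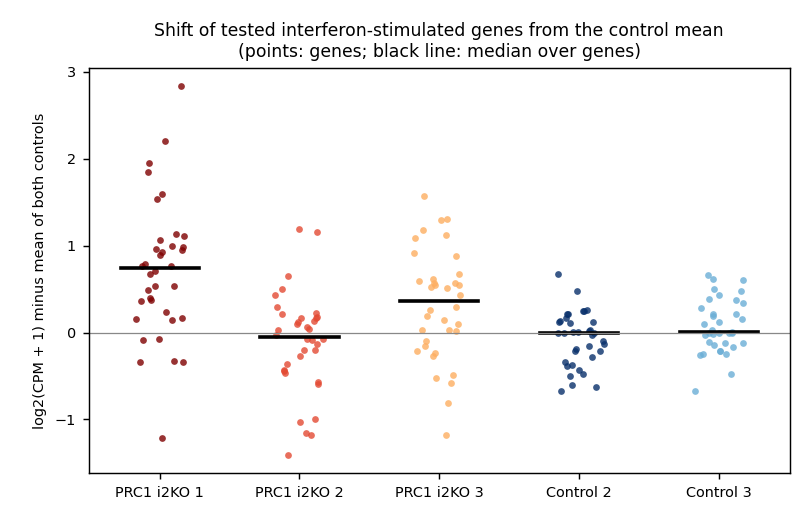
Difference of log2(CPM + 1) from the mean of both controls for each of the 36 tested interferon-stimulated genes (points), by library, with the median as a black line. The median was 0.74, -0.05 and 0.36 in PRC1 i2KO 1, 2 and 3.

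In 10 of the 36 tested members every PRC1 i2KO library lay above both controls in CPM, an order shown by 14.6% of all tested genes, and in 1 (Ifi35) every PRC1 i2KO library lay below, against 15.3% of all genes. The 10 were Psmb8, Psmb9, Adar, Irf9, Irf1, Dtx3l, Bst2, Cmpk2, Oas1a and Rtp4. Oas1a and Rtp4 had no control count and passed the filter only through PRC1 i2KO. In PRC1 i2KO 2 they were at 0.0226 and 0.0451 CPM, under the floor of 3 counts over both controls (0.0485 CPM). Of the 28 members of at least 1 CPM on average, 7 lay above and 1 below, against 17% and 13.8% of the 16913 genes at that level. In the deposited TPM values 8 lay above (7.01% of all genes did) and 6 below (23% of all genes): Parp9, Ddx58, Usp18, Parp14, Ifi35 and Gbp2.

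Among the signalling and transcription factor genes, all 4 had positive log2 fold changes and none passed. Irf9, the DNA-binding subunit of the STAT complex, was at 19.1, 11.8 and 21.1 CPM in PRC1 i2KO 1, 2 and 3 and at 9.32 and 9.44 CPM in Control 2 and 3. The groups did not overlap, and the difference on the log2 scale was 0.88 ± 0.38 (SE, edgeR adjusted p = 0.440). Exons of Irf9 overlap those of Rnf31 on the same strand in GENCODE M21, so its counts are uncertain to the extent that shared reads were split. Stat2, its partner in the complex, was at 44.7, 20.5 and 33.8 CPM in PRC1 i2KO and 19.0 and 22.8 CPM in Control, with PRC1 i2KO 2 between the controls (log2 fold change 0.66 ± 0.35, adjusted p = 0.550 by edgeR). Irf1, the factor of the interferon gamma branch, was at 19.9, 20.1 and 26.2 CPM in PRC1 i2KO and 19.9 and 15.7 CPM in Control, and its lowest PRC1 i2KO value exceeded Control 2 by less than 0.1 CPM. Irf7, the amplifier of type I interferon synthesis, stayed between 0.853 and 3.12 CPM in all libraries.

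Of the 6 sensors and RNA-binding regulators, 5 were tested. Adar, which edits adenosine to inosine in double-stranded RNA and so limits its sensing, had 296, 709 and 566 counts in PRC1 i2KO 1, 2 and 3 and 329 and 83 counts in Control 2 and 3. Scaled for library size this was 13.6, 16.0 and 17.9 CPM in PRC1 i2KO and 6.68 and 6.58 CPM in Control. In CPM the groups were well apart, the spread within each was small, and PRC1 i2KO 1 was here the lowest of the PRC1 i2KO libraries. In TPM Adar was at 2.10, 3.01 and 2.86 in PRC1 i2KO and 1.87 and 1.04 in Control, with PRC1 i2KO 1 close to Control 2. On log2(TPM + 1) limma gave a log2 fold change of 0.59 (limma adjusted p = 0.606). Adar had the smallest p of the members (log2 fold change 1.25 ± 0.36, unadjusted p = 0.00684), which did not pass after adjustment by edgeR (0.248) and did by DESeq2 (adjusted p = 0.00557). Leaving out any 1 library kept the edgeR log2 fold change between 1.15 and 1.35. Its exons overlap Chrnb2 on the opposite strand, and no source used here states whether reads were counted by strand.

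Ddx58, which encodes the RNA sensor RIG-I, gave different orders in counts and in TPM. In CPM it was at 32.0, 18.2 and 22 in PRC1 i2KO 1, 2 and 3 and at 13 and 19.7 in Control 2 and 3, with overlap (log2 fold change 0.56 ± 0.35, edgeR adjusted p = 0.614). In TPM every PRC1 i2KO library was lower, at 22.7, 13.2 and 15.1 TPM against 23.1 and 26.2 TPM in Control. Count over TPM gives an implied transcript length; as a multiple of the mean of both controls it came to 1.53, 1.93 and 1.73 in PRC1 i2KO 1, 2 and 3, and 1.01 and 0.993 in Control 2 and 3. Of 25 members with at least 20 counts in every library, Ddx58, Psmb9 and Trim25 had a longer implied length in all PRC1 i2KO libraries than in both controls, an order found in 7.07% of such features, and 7 members (Psmb8, Irf9, Xaf1, Tap1, Parp12, Ifit1 and Gbp2) had a shorter one, against 38.6% of such features. The margin was small for Trim25, at 1.01 to 1.02 in PRC1 i2KO against 1.00 and 0.998 in Control. Ifih1, which encodes the long double-stranded RNA sensor MDA5, was at 50.6, 36.1 and 21.3 CPM in PRC1 i2KO and 44.2 and 32.8 CPM in Control, and the PRC1 i2KO libraries lay on both sides of the controls. Eif2ak2, the kinase PKR, was at 58.7, 31.2 and 59.3 CPM in PRC1 i2KO and 44.4 and 36.5 CPM in Control, also with overlap. Zbp1, the sensor of left-handed nucleic acid, had 21, 11 and 4 counts in PRC1 i2KO and 3 and 1 in Control and did not pass the filter. Dhx58, which encodes LGP2, a relative of RIG-I that regulates it, was at 2.84, 0.519 and 2.21 CPM in PRC1 i2KO and 0.568 and 0.952 CPM in Control, with PRC1 i2KO 2 lowest of all libraries.

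The IFIT and OAS genes, classical targets of type I interferon, were low in mean TPM, from 0.0265 to 3.26. Summed over the 8 genes in the table they reached 27.6, 3.63 and 13.7 CPM in PRC1 i2KO 1, 2 and 3 and 6.44 and 8.17 CPM in Control 2 and 3, so that the PRC1 i2KO libraries lay on both sides of the controls. Most of the sum in PRC1 i2KO 1 was Oasl2, which carries ubiquitin-like domains, at 17.1 CPM, against 2.10 and 7.81 CPM in PRC1 i2KO 2 and 3 and 4.06 and 3.33 CPM in Control (log2 fold change 1.28 ± 0.79, edgeR adjusted p = 0.610). Oas1a, an enzyme making the 2-5A messenger that activates RNase L, had 57, 1 and 40 counts in PRC1 i2KO 1, 2 and 3 and 0 in both controls. Its mean of 1.3 CPM was at least 26.8-fold higher than 3 counts over both controls (0.0485 CPM), or at least 13.3-fold without PRC1 i2KO 1 (edgeR adjusted p = 0.320, DESeq2 adjusted p = 0.0326). PRC1 i2KO 2, with its single count, was close to the controls. Ifit1, an RNA-cap binding inhibitor of translation, had 93, 27 and 90 counts in PRC1 i2KO and 55 and 49 in Control (2.57 ± 1.84 CPM, SD, n = 3, against 2.5 ± 1.96 CPM, SD, n = 2). Ifit3 had 0 counts in all PRC1 i2KO libraries and 0 and 3 in Control, and Oas2 had 7, 25 and 0 counts in PRC1 i2KO and 0 in both controls. Ifit2 had 29, 0 and 12 counts in PRC1 i2KO and 23 and 3 in Control, and Oasl1 had 1, 1 and 7 in PRC1 i2KO and 6 and 3 in Control. Oas3 was at 1.88, 0.316 and 1.14 CPM in PRC1 i2KO and 0.670 and 0.238 CPM in Control, again with PRC1 i2KO 2 between the controls. Reads of the IFIT, OAS, GBP, Mx and Trim30 genes can be shared with close paralogs, so their single values are uncertain.

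Of the 11 other antiviral effectors 9 were tested, and 6 of these had positive log2 fold changes and 3 negative ones. Rtp4 had 44, 2 and 17 counts in PRC1 i2KO 1, 2 and 3 and 0 in both controls. Its mean of 0.866 CPM was at least 17.9-fold higher than 3 counts over both controls (edgeR adjusted p = 0.329). PRC1 i2KO 2, at 0.0451 CPM, was under that floor of 0.0485 CPM and so close to the controls. Without PRC1 i2KO 1, Rtp4 was at least 6.01-fold higher. Its exons overlap a predicted gene on the same strand. Cmpk2, a mitochondrial nucleotide kinase, had 25, 31 and 55 counts in PRC1 i2KO and 18 and 2 in Control (log2 fold change 2.11 ± 1.07, edgeR adjusted p = 0.524). Bst2, the tether that holds budding virus at the cell surface, had 41, 57 and 38 counts in PRC1 i2KO and 18 and 7 in Control, or 1.46 ± 0.369 CPM (SD, n = 3) against 0.460 ± 0.134 CPM (SD, n = 2), with an edgeR adjusted p of 0.571. For both genes the CPM of every PRC1 i2KO library exceeded both controls, at counts where a few reads move the value. Rsad2, encoding viperin, had 4, 1 and 1 counts in PRC1 i2KO and 16 and 1 in Control. Mx1, a dynamin-like GTPase active against influenza virus, had 17, 12 and 36 counts in PRC1 i2KO and 16 and 21 in Control (log2 fold change -0.42 ± 1.12, edgeR adjusted p = 0.935). Its sign was not stable, since the log2 fold change was 1.16 without Control 3 and 0.18 with limma-voom. Ifi35, which forms a complex with NMI, was the member with all PRC1 i2KO libraries lower, at 7.65, 3.11 and 6.58 CPM against 8.39 and 11.7 CPM in Control (-0.79 ± 0.51, edgeR adjusted p = 0.628). The groups overlapped for the remaining genes. Xaf1, an antagonist of the apoptosis inhibitor XIAP, was at 9.76, 2.39 and 4.11 CPM in PRC1 i2KO and 6.48 and 6.82 CPM in Control, and Ifi44 at 3.44, 0.722 and 1.55 CPM in PRC1 i2KO and 1.42 and 1.35 CPM in Control. Mx2 stayed at or under 2.02 CPM in every library, and Samd9l had 0, 1 and 9 counts in PRC1 i2KO and 26 and 2 in Control.

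**Figure D3:**
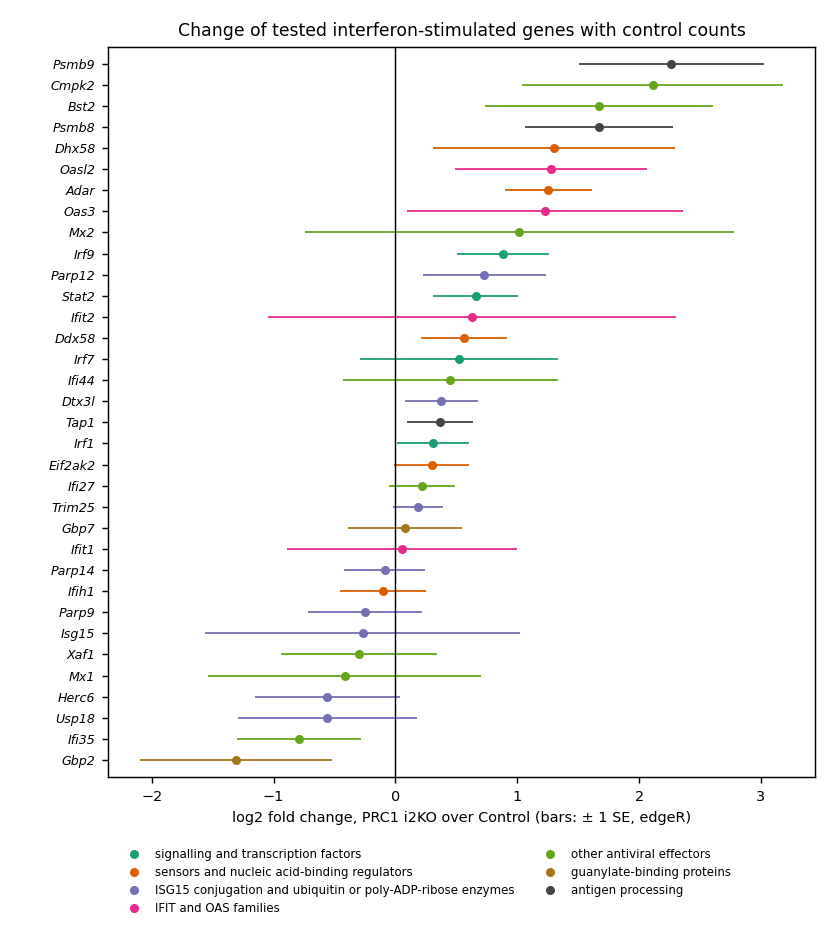
Log2 fold change (PRC1 i2KO over Control, edgeR) of the 34 tested members that had control counts, ordered by value, with bars of ± 1 SE and colours by role. None passed an adjusted p of 0.05; Psmb9 stood highest at 2.26 and Gbp2 lowest at -1.31, and bars were widest for genes of few counts.

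ISG15 and the ubiquitin and ADP-ribose enzymes showed no common direction. Isg15 itself had 11, 5 and 8 counts in PRC1 i2KO 1, 2 and 3 and 8 and 7 counts in Control 2 and 3. Usp18, the protease that removes ISG15 and damps the receptor, was at 3.71, 1.08 and 2.02 CPM in PRC1 i2KO and 4.10 and 2.54 CPM in Control, and Herc6, the ISG15 ligase of mouse, was at 2.57, 6.77 and 6.39 CPM in PRC1 i2KO and 10.5 and 4.92 CPM in Control. Both log2 fold changes were -0.56 (SE 0.74 for Usp18 and 0.59 for Herc6), with edgeR adjusted p of 0.841 and 0.795, and without Control 2 that of Herc6 was 0.10. Trim25, the most abundant of the group, was at 187, 167 and 146 CPM in PRC1 i2KO and 171 and 121 CPM in Control (log2 fold change 0.19 ± 0.21, edgeR adjusted p = 0.806). Of the divergent pair Parp9 and Dtx3l, whose products form an enzyme complex, Dtx3l was at 29.6, 18.7 and 22.3 CPM in PRC1 i2KO and 18.5 and 17.7 CPM in Control, and Parp9 at 8.57, 12.4 and 9.33 CPM in PRC1 i2KO and 6.80 and 17.5 CPM in Control. Exons of the pair overlap on opposite strands. Parp12, a mono-ADP-ribosyltransferase, was at 51.1 CPM in PRC1 i2KO 1 and between 12.9 and 22.4 CPM in the other 4 libraries. Its relative Parp14 was at 30.7, 17.1 and 19.5 CPM in PRC1 i2KO and 20.6 and 27.1 CPM in Control, with the controls inside the range of PRC1 i2KO. Trim30a had 8, 4 and 4 counts in PRC1 i2KO and 5 and 2 in Control and was not tested. Over the 8 tested genes of the group, 3 were positive and 5 negative, with a median log2 fold change of -0.17.

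Of the guanylate-binding proteins, GTPases that attack vacuoles of intracellular pathogens, 2 of 3 were tested. Gbp2 had the lowest log2 fold change of the members, at 2.38, 0.925 and 0.886 CPM in PRC1 i2KO 1, 2 and 3 and 2.17 and 4.76 CPM in Control 2 and 3 (-1.31 ± 0.79, edgeR adjusted p = 0.604). PRC1 i2KO 1 lay between the controls and the other PRC1 i2KO libraries below them. Gbp7 was at 14.6, 10.4 and 18.6 CPM in PRC1 i2KO and 20.0 and 7.30 CPM in Control, and Gbp3 had 3 counts in PRC1 i2KO 3 and 0 in every other library.

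In the antigen processing group, Psmb8 and Psmb9 were above both controls in every PRC1 i2KO library and Tap1 was not. Psmb8 and Psmb9 encode catalytic subunits of the immunoproteasome, which cuts proteins into peptides for MHC class I, and Tap1 encodes a subunit of the pump that carries these peptides into the endoplasmic reticulum. Psmb9 had 528, 313 and 299 counts in PRC1 i2KO 1, 2 and 3 and 60 and 58 counts in Control 2 and 3, equal to 24.2, 7.06 and 9.46 CPM in PRC1 i2KO and 1.22 and 4.60 CPM in Control. The groups did not overlap in CPM or in TPM, and PRC1 i2KO 1 was far above the rest. The log2 fold change was 2.26 ± 0.76 (edgeR adjusted p = 0.322; DESeq2 adjusted p = 0.0338), and it was 1.54 without PRC1 i2KO 1 and 3.48 without Control 3. Psmb8 was at 23.2, 6.45 and 11.9 CPM in PRC1 i2KO and 3.15 and 5.63 CPM in Control (1.67 ± 0.61, edgeR adjusted p = 0.358), and at 1.08 on the log2 scale without PRC1 i2KO 1. Tap1 was at 46.4, 30.1 and 45.9 CPM in PRC1 i2KO and 31.9 and 31.4 CPM in Control, with PRC1 i2KO 2 below both controls (0.37 ± 0.27, edgeR adjusted p = 0.684).

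Psmb9 and Tap1 are transcribed in opposite directions from a shared stretch, with 226 bases between their RefSeq starts in GRCm38.p6, and their exons overlap on opposite strands. The Psmb9 promoter entry, chosen for printing after its values were seen, shares 275 of its 300 bases with that of Tap1 and holds neither the ISRE core nor the GAS core as searched here.
Psmb9 (chr17:34187281-34187580, - strand): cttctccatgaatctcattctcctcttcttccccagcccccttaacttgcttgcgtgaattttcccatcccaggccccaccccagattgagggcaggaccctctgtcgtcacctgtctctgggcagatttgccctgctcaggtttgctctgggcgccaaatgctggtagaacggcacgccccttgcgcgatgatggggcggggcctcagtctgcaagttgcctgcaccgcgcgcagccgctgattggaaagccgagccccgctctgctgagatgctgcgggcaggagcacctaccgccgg
The ratio of mean CPM in PRC1 i2KO to that in Control was 4.66 for Psmb9 and 1.29 for Tap1.

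Other genes of the MHC class I pathway, none of them members, had positive log2 fold changes throughout. All 12 listed genes were tested and 12 were positive, as were 11172 of all 22181 tested genes, with a median log2 fold change of 0.60. By edgeR 0 passed, with 4 higher and 0 lower at an unadjusted p under 0.05, against 7.43% and 3.51% of all genes. In 5 every PRC1 i2KO library lay above both controls, against 14.6% of all genes. B2m, the invariant light chain, was at 1390, 1007 and 1192 CPM in PRC1 i2KO 1, 2 and 3 and at 475 and 701 CPM in Control 2 and 3. On the log2 scale the difference was 1.02 ± 0.21 (SE, edgeR adjusted p = 0.149). The heavy chain gene H2-D1 was at 329, 249 and 252 CPM in PRC1 i2KO and 134 and 174 CPM in Control (0.84 ± 0.21, edgeR adjusted p = 0.195). In both genes the groups were apart, and PRC1 i2KO 1 was the highest library. Fibroblast markers were also higher in sum in every PRC1 i2KO library, with 154, 128 and 118 CPM over 8 genes in PRC1 i2KO against 77.2 and 73.6 CPM in Control, and interfollicular epidermis markers summed to 800, 2543 and 1344 CPM in PRC1 i2KO against 813 and 786 CPM in Control. Of these lists 4 fibroblast and 7 interfollicular markers were tested, all with positive log2 fold changes (medians 1.28 and 1.44). By edgeR 0 passed, and 2 and 3 were higher at an unadjusted p under 0.05, against 7.43% of all genes. The smallest edgeR adjusted p was 0.0502 among the fibroblast markers, just over the threshold, and 0.164 among the interfollicular markers. The gate for EpCAM-positive, Sca1-negative cells selects against both cell types, and sort purity was not measured here. The part of these cell types in the MHC class I values was not tested.

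**Figure D4:**
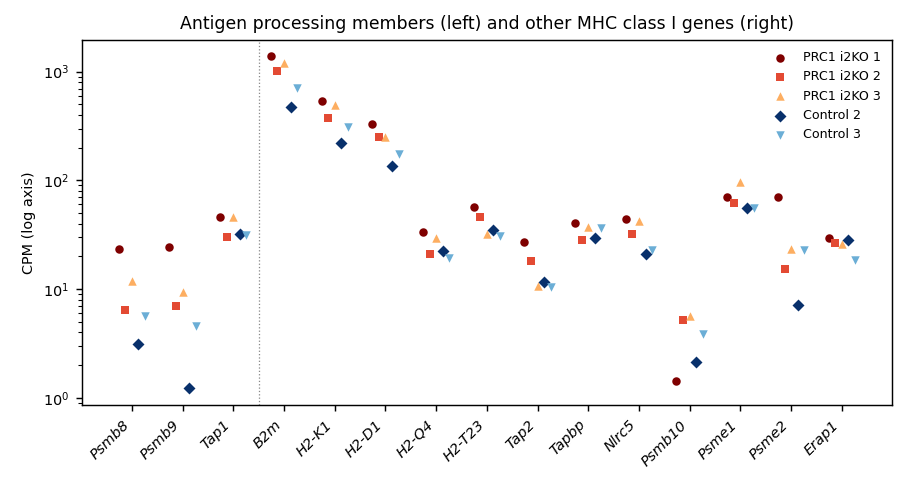
CPM on a log axis of the 3 antigen processing members (left of the dotted line) and of 12 other MHC class I pathway genes (right) in each library. B2m, H2-K1, H2-D1, Nlrc5 and Psme1 lie above both controls in every PRC1 i2KO library, as do Psmb8 and Psmb9.

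Upstream of these genes, RNA of the receptor genes was present, and the 2 interferon genes found in the table had few counts. The other listed interferon genes were not in the table, so their RNA was not assessed. Interferon made by other cells of the skin was not measured. Of 11 listed interferon genes 2 were in the table and neither passed the filter: Ifnk, the keratinocyte interferon, had 1, 12 and 2 counts in PRC1 i2KO 1, 2 and 3 and 22 and 0 in Control 2 and 3, and Ifna2 had 0, 0 and 31 counts in PRC1 i2KO and 3 and 2 in Control. Ifna genes share reads with close paralogs. All 11 genes of receptors, kinases and STATs were tested, with 0 passing by edgeR in either direction (0 also at an unadjusted p under 0.05) and a median log2 fold change of 0.28. The receptor subunit gene Ifnar1 was at 45.9, 47.7 and 31.3 CPM in PRC1 i2KO and 53.4 and 33.7 CPM in Control, with overlap. The smallest p of this list belonged to the interferon gamma receptor gene Ifngr1, at 19.7, 17.9 and 14.4 CPM in PRC1 i2KO and 7.94 and 12 CPM in Control (log2 fold change 0.80 ± 0.36, edgeR adjusted p = 0.463), and then to Stat3 (0.38 ± 0.18, adjusted p = 0.490).

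Among 10 negative regulators, 0 passed by edgeR and 3 were higher at an unadjusted p under 0.05, against 7.43% of all genes. Socs3, a feedback inhibitor of cytokine receptors that STAT3 induces, was at 82.5, 77.6 and 89.6 CPM in PRC1 i2KO 1, 2 and 3 and at 34.9 and 46.1 CPM in Control 2 and 3. On the log2 scale the difference was 1.04 ± 0.22 (SE, edgeR adjusted p = 0.150). The PRC1 i2KO libraries were close together and all above both controls. Rnaseh2b, a subunit of the enzyme that removes ribonucleotides from DNA, was at 25.9, 25.6 and 22.2 CPM in PRC1 i2KO and 16.3 and 11.7 CPM in Control (0.80 ± 0.30, adjusted p = 0.368 by edgeR). Of the adaptors of nucleic acid sensing, 9 of 10 were tested and 0 passed (0 also at an unadjusted p under 0.05 by edgeR); the 2 with the smallest p were Ikbke, a kinase acting on IRF3 (0.89 ± 0.41, edgeR adjusted p = 0.474), and Mavs, the mitochondrial adaptor of RIG-I and MDA5 (0.42 ± 0.29, adjusted p = 0.664).

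One sort marker is itself inducible by interferon. Ly6a, which encodes Sca1 and was selected against in the sort, was at 3.12, 4.78 and 4.93 CPM in PRC1 i2KO 1, 2 and 3 and at 1.62 and 0.793 CPM in Control 2 and 3. On the log2 scale the difference was 1.79 ± 0.70 (SE, edgeR adjusted p = 0.398). All PRC1 i2KO values were above both controls, and all were low. The sort was set to leave out cells with Sca1 on their surface, and carry-over of such cells was not tested.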

How the data were processed

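For each of 5 samples, the authors deposited an expected (estimated) read count and a TPM value per gene; per the submitters' processing notes STAR 2.7.9a, RSEM 1.3.3, DESeq2 1.38.2 and build mm39 were used, without stated roles. Per the labels' protocols, libraries were made from polyadenylated RNA. Of the deposited expected counts 60.2% were not whole, and they were rounded. The main test was the quasi-likelihood test of edgeR 4.0.16 (R 4.3.3) on a design holding only the group, after filterByExpr and TMM scaling, with Benjamini-Hochberg adjustment over all genes tested and a threshold of 0.05; the SE is the log2 fold change over the square root of F. DESeq2 1.42.0 and limma 3.58.1 were alternatives, and the edgeR, DESeq2 and limma-voom fits were tested on simulated data, where DESeq2 made more false calls than the other 2 tools. The simulated counts were drawn with edgeR's own trended dispersion, so they do not rank the tools on the real data. CPM uses TMM-scaled library sizes. The deposited TPM values were used for levels between genes and, with a pseudocount of 1 or 0.1, in limma. Implied lengths are count over TPM, scaled to each library's median. Exon overlaps come from GENCODE M21 (GRCm38), where all 44 members matched, and promoters from RefSeq GRCm38.p6, matched by symbol; both differ from the build in the notes. The members and gene lists were chosen with earlier results of these data known. Members with full statistics are the 5 highest and 5 lowest log2 fold changes, the 5 smallest p and the 5 highest mean TPM; of each pathway list the 2 smallest p. Other members are given by role; Ifnar1, Cd207, Itgax, Ptprc and the MHC class I genes named only in a caption were chosen after their values were seen. Floors of 3 counts cover counting error only. With 3 against 2 libraries the smallest two-sided exact permutation p is 0.2, so none was computed. The result of 1 gene is not reported here.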

Additional observations from a re-analysis of the deposited data

How the results depend on the processing

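The count of members called lower was 0 under all 15 alternatives, and the count called higher was 0 under 14 and 3 with DESeq2. The median log2 fold change of the members was -0.015 with limma on log2(TPM + 1), -0.017 without a filter and -0.058 on log2(TPM + 0.1), where the medians of all genes were -0.19, -0.12 and -0.33. Leaving out 1 library at a time gave 0.12 to 0.80, with 1 control then assumed to vary like the other group. It was 0.18 with a replicate block by title number and 0.27 with one by description number. The labels do not state that numbers pair samples, and deviations from the group means correlated at 0.09 and 0.06 (title) and at -0.03 and -0.09 (description) in the available pairs; neither block called a member. The count of members above both controls in every PRC1 i2KO library, an alternative chosen after seeing the data, was 8 in TPM, 7 at 1 CPM or more, and 10 to 18 without each library, where it cannot fall and the share over all genes was 20.4% to 26.2%. Over 16 members with full statistics, 216 of 236 refits kept direction and call, 3 passed with DESeq2 (Adar, Oas1a and Psmb9) and 17 changed sign, none of them past the threshold. Oas1a and Rtp4 had 13 refits each, since neither was tested without PRC1 i2KO 1 or without PRC1 i2KO 3. Sign changes with limma on log2(TPM + 1), log2(TPM + 0.1) and log2(TPM + 1) without a filter were those of Ifi27 (-0.14, -0.14 and -0.14), Trim25 (-0.16, -0.16 and -0.16), Ddx58 (-0.55, -0.57 and -0.55) and Stat2 (-0.042, -0.044 and -0.042). Leaving out 1 library at a time gave a range of -1.19 to 1.16 for Mx1, of -0.00092 to 0.50 for Ifi27, of -0.028 to 0.46 for Trim25 and of -0.98 to 0.098 for Herc6, where Herc6 changed sign without Control 2 and the others without Control 3. With limma-voom, Mx1 was at 0.18. The cause of these changes was not tested. With 1 count in Control 3 worth 0.0793 CPM, genes under 1 CPM rest there on few counts.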
